A study of Mus musculus with 77 samples.

Results

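*Epas1* encodes HIF-2α, an oxygen-sensitive transcription factor whose mRNA carries an iron responsive element (IRE) in its 5′ UTR. The genes described here are *Epas1* and the core of the hypoxia pathway around it, 10 genes chosen by name among the 25266 genes that the count files list. They are the HIF-α subunits *Epas1* and *Hif1a*, their partner *Arnt*, the oxygen sensors *Egln1*, *Egln2*, *Egln3* and *Hif1an*, the ubiquitin ligase subunit *Vhl*, and the HIF targets *Vegfa* and *Ankrd37*. Of the 10, 9 passed the filter on low counts and were tested, and *Ankrd37* did not pass.

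When oxygen is plentiful, the prolyl hydroxylases encoded by *Egln1*, *Egln2* and *Egln3* mark HIF-α proteins for binding by VHL and degradation, and the asparaginyl hydroxylase encoded by *Hif1an* blocks their activity. These enzymes need iron as a cofactor. When oxygen or iron is short, HIF-α pairs with ARNT and activates genes for blood vessel growth, glycolysis and iron uptake. Iron regulatory protein 1 (IRP1, encoded by *Aco1*) and iron regulatory protein 2 (IRP2, encoded by *Ireb2*) bind 5′ IREs and hold back translation, so *Epas1* joins iron sensing to oxygen sensing.

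The study asked how loss of either IRP alters IRE transcripts at 2 times of day. Livers came from healthy adult males, 12 to 24 weeks old, of 4 genotypes: *Aco1*-/- mice (allele *Aco1*tm1.1Mwh) with *Aco1*+/+ controls, and *Ireb2*-/- mice (allele *Ireb2*tm1.2Mwh) with *Ireb2*+/+ controls. All were kept on a C57BL/6J background and none was treated. Zeitgeber time (ZT) counts hours from lights on, and 3 livers of each genotype were taken at ZT5, in the light phase, and 3 at ZT12, at its end. The functional gene is missing from the whole animal, so the liver cannot be told apart from the rest of the body as the site of an effect. Each of the 24 livers gave 1 library of ribosome-protected fragments (RPFs) and 1 of total RNA.

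Reads in the coding sequence (CDS) numbered 852293 to 3993492 in RNA libraries and 2448915 to 13439600 in RPF libraries. Below, RNA and RPF levels are CDS counts for every 1000000 reads of the library size after upper-quartile scaling (CPM), and translation efficiency (TE) is log2 of RPF over RNA in one liver. A gene was called when its p, adjusted over all 10696 genes tested, was under 0.05 in edgeR's quasi-likelihood test. The knockout alleles still gave mRNA. *Aco1* RPFs were 74.8, 81.2 and 83.4 CPM in *Aco1*-/- livers at ZT5 against 410 ± 70.2 CPM (SD, n = 3) in *Aco1*+/+ livers, and the fitted log2 fold change was −2.36 ± 0.15 (SE, adjusted p = 7.07e-08). *Ireb2* RPFs were 33.2, 39.7 and 38.7 CPM in *Ireb2*-/- livers at ZT5 against 66.6 to 79.3 CPM in *Ireb2*+/+ livers, with a log2 fold change of −1.0 ± 0.13 (SE, adjusted p = 0.00294). Nothing in the labels says that mice of a group came from separate litters, so p-values measure the spread between these livers.

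HIF dimers recognise the letters ACGTG or GCGTG, the core of the hypoxia response element. RefSeq promoters of build GRCm38.p6, 300 bases long and reaching 250 bases upstream of the start, were at hand for 9 of the 10 genes (11 promoters). Either motif, on either strand, occurred in 8 of these 11, against 43.8% of all 32851 promoters. ACGTG alone occurred in 19.6% of all promoters and GCGTG in 32.4%. The windows below are those of 4 genes known as HIF targets and stand here because the results turn on whether such genes moved with *Epas1*. They read 5′ to 3′ on the gene's strand, all on the minus strand, and capitals mark the motifs. In the reverse orientation ACGTG reads CACGT.

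*Vegfa*, chr17:46025367-46025391, GCGTG beginning 218 bases upstream and CACGT beside it: gccctggagtGCGTGccCACGTcag

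*Egln3*, chr12:54204089-54204113, 229 bases upstream: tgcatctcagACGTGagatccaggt

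*Egln1*, chr8:124949308-124949332, 68 bases upstream: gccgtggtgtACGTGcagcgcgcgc

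*Ankrd37*, chr8:46000077-46000100, 241 bases upstream: cccagcagtACGTGcctagctcgg

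The *Vegfa* promoter at the gene's annotated 5′ end, chr17:46032328-46032627, held neither motif, nor did those of *Vhl* and *Hif1an*. The *Vegfa* window shown lies inside the annotated gene (chr17:46016993-46032377), upstream of a start within it. So does that of *Ankrd37* (chr8:45996908-46000414). A match is a description of the letters and was not tied to binding in these livers.

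*Epas1* (chr17:86753864-86833410) was the best covered of the 10 genes, with 161 to 783 CDS counts in RNA libraries and 543 to 2964 in RPF libraries. *Epas1* RNA was highest at ZT12. In *Aco1*+/+ livers it was 120.4, 119.4 and 121.7 CPM at ZT5 and 209, 170 and 176 CPM at ZT12. In *Aco1*-/- livers it was 92.0, 107.3 and 149.6 CPM at ZT5 and 164, 180 and 197 CPM at ZT12. The 2 times did not overlap in either genotype of this line, while knockout and control overlapped at each time. In *Ireb2*+/+ livers *Epas1* RNA was 154, 177 and 211 CPM at ZT5 and 248, 167 and 258 CPM at ZT12. In *Ireb2*-/- livers it was 154, 161 and 169 CPM at ZT5 and 236, 219 and 196 CPM at ZT12. Here the times overlapped in the controls, through 1 liver at ZT12, and not in the knockouts. Group means ranged from 116 CPM in *Aco1*-/- livers at ZT5 to 224 CPM in *Ireb2*+/+ livers at ZT12. In that order 3 of the 7 steps exceeded the SDs of both neighbours: from *Aco1*+/+ to *Ireb2*-/- at ZT5, on to *Aco1*-/- at ZT12, and from *Aco1*+/+ to *Ireb2*-/- at ZT12.

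*Epas1* footprints were most frequent in *Aco1*-/- livers at ZT12. Their RPF values were 338, 394 and 352 CPM, all above the 239, 283 and 297 CPM of *Aco1*+/+ livers at that time and above every liver of the other 6 groups. At ZT5 the same line gave 167, 175 and 247 CPM in controls and 158, 163 and 259 CPM in knockouts, which overlapped. *Ireb2*+/+ livers had 243, 255 and 237 CPM at ZT5 and 310, 242 and 308 CPM at ZT12. *Ireb2*-/- livers had 189, 225 and 233 CPM at ZT5 and 271, 243 and 199 CPM at ZT12, lower than their controls at ZT5 without overlap and overlapping them at ZT12. Ordered by group mean, from 193 to 361 CPM, the step up to *Aco1*-/- at ZT12 from the next group, *Ireb2*+/+ at ZT12, was the 1 of 7 that exceeded the SDs of both neighbours.

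The TE of *Epas1* was high among liver genes. Over 24 livers it had a median of 0.53 on the log2 scale, at the 69.2th percentile of the genes tested (lowest liver 47.2, highest 89.3). *Aco1*-/- livers at ZT12 had log2 TE of 1.05, 1.13 and 0.83. Their controls had 0.19, 0.73 and 0.76. *Ireb2*-/- livers at ZT12 lay at the other end, with 0.20, 0.15 and 0.02 against 0.32, 0.54 and 0.25 in their controls. At ZT5 knockout and control overlapped in both lines, at 0.61 to 0.79 against 0.47 to 1.02 in the *Aco1* line and 0.30 to 0.48 against 0.17 to 0.66 in the *Ireb2* line. The highest and the lowest of the 8 groups were thus the 2 knockouts at ZT12, *Aco1*-/- at 1.00 ± 0.15 (SD, n = 3) and *Ireb2*-/- at 0.12 ± 0.09 (SD, n = 3), and each stood off its nearest neighbour by more than both SDs. The steps between the other groups did not exceed both SDs.

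**Figure D1:**
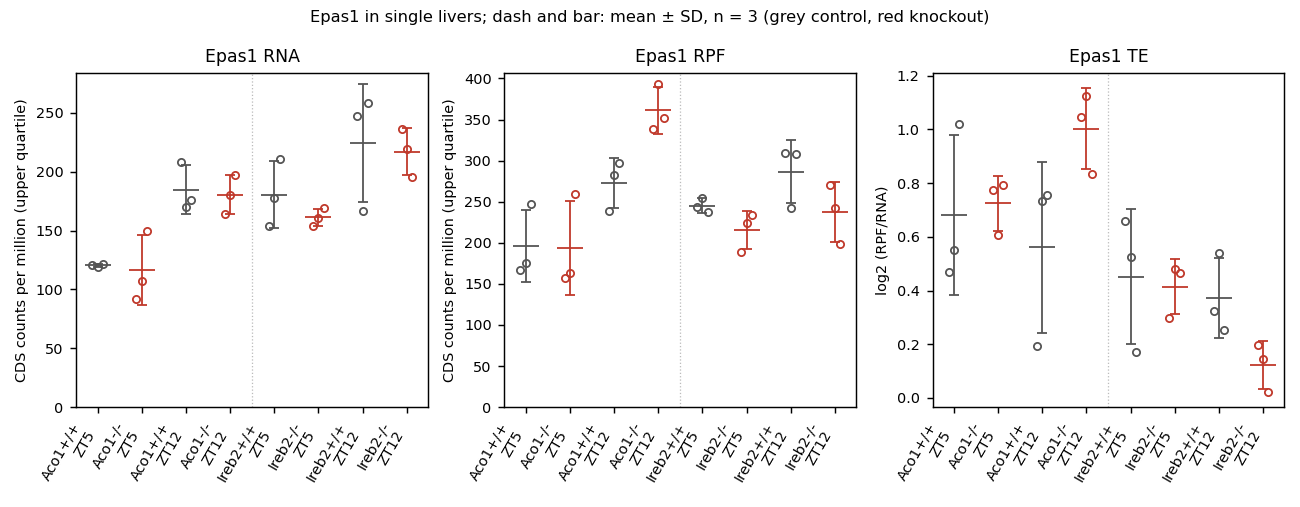
*Epas1* in single livers, as RNA and RPF (CPM of CDS counts after upper-quartile scaling) and as TE (log2 of RPF over RNA). Circles are livers, dashes and bars the mean and SD of 3, grey controls and red knockouts. RNA was higher at ZT12 in the *Aco1* line, and the highest group means of RPF and TE were those of *Aco1*-/- livers at ZT12, with TE means of 1.00 against 0.56 in their controls.

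The first comparison asked whether loss of either IRP raised *Epas1* translation. At ZT12, *Epas1* TE was 0.43 ± 0.16 higher (log2, SE) in *Aco1*-/- than in *Aco1*+/+ livers, a factor of 1.35, with a 95% confidence interval of 0.12 to 0.75. The unadjusted p was 0.00821 and the adjusted p 0.489 (edgeR's quasi-likelihood test), so the difference was not called. The liver *Aco1*+/+ replicate 1, whose TE of 0.19 stood apart from the other 2 controls, carried part of the value, which was 0.25 without it. At ZT5 the difference was 0.06 (95% confidence interval −0.27 to 0.39, adjusted p = 1.00). RPF at ZT12 differed by 0.41 ± 0.19 (SE, unadjusted p = 0.0434, adjusted p = 0.382), and *Epas1* RNA by −0.02, with an interval of −0.34 to 0.29. With 3 livers against 3, the exact two-sided permutation test of the log2 values cannot give a p under 0.1, and it gave 0.1 for both TE and RPF at ZT12.

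Loss of IRP2 went the other way at ZT12. *Epas1* TE was −0.25 ± 0.11 (log2, SE) in *Ireb2*-/- against *Ireb2*+/+ livers (95% confidence interval −0.48 to −0.02, unadjusted p = 0.0335, adjusted p = 1.00, edgeR), and at ZT5 it was −0.04 (−0.27 to 0.19). RPF differed by −0.27 ± 0.13 at ZT12 (adjusted p = 0.654) and by −0.18 ± 0.13 at ZT5 (adjusted p = 0.774). None of these was called. At ZT5, RPF was −0.10 without *Ireb2*-/- replicate 1. At ZT12, TE was −0.16 without *Ireb2*+/+ replicate 2 and RPF −0.16 without *Ireb2*-/- replicate 3. The effect of IRP1 loss minus that of IRP2 loss on *Epas1* TE was 0.68 ± 0.20 at ZT12 (95% confidence interval 0.28 to 1.08, unadjusted p = 0.00123, adjusted p = 0.625) and 0.10 ± 0.20 at ZT5 (adjusted p = 1.00). The genotype effect at ZT12 minus that at ZT5 was 0.38 ± 0.22 in the *Aco1* line (adjusted p = 0.993) and −0.21 ± 0.16 in the *Ireb2* line (adjusted p = 0.962). Leaving out *Aco1*+/+ replicate 1 at ZT12 gave 0.20 in the *Aco1* line, and the first sequencing run alone gave 0.19. Leaving out *Ireb2*+/+ replicate 3 at ZT5 gave −0.07 in the *Ireb2* line.

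For comparison, *Slc40a1*, the iron exporter ferroportin and another 5′ IRE transcript, was called in *Aco1*-/- livers at ZT12, with TE higher by 0.74 ± 0.15 (log2, SE, adjusted p = 0.0171). Its log2 TE was −0.02, 0.38 and 0.42 in those livers against −0.67, −0.44 and −0.23 in controls. The same value for *Alas2*, erythroid haem synthesis, was 0.59 ± 0.17 (adjusted p = 0.238), for the ferritin heavy chain gene *Fth1* 1.44 ± 0.54 (adjusted p = 0.671), and for the light chain gene *Ftl1* 0.24 ± 0.66 (adjusted p = 0.976). Of these transcripts, *Slc40a1* was the one called in this comparison. Whether *Epas1* and *Slc40a1* differed in response was not tested. Pseudogenes of *Ftl1* and *Fth1* may share their reads, which makes their values uncertain.

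The 5′ UTR that holds the IRE collected few *Epas1* reads, 13 to 79 counts in RPF libraries. Its share of 5′ UTR plus CDS footprints was 3.83, 3.87 and 3.55% in *Aco1*+/+ livers at ZT5 and 1.86, 2.11 and 2.29% at ZT12. In *Aco1*-/- livers it was 4.59, 3.32 and 3.12% at ZT5 and 2.96, 2.28 and 1.47% at ZT12. Both genotypes had the lower share at ZT12, by 1.67 and 1.44 percentage points, without overlap (exact permutation p = 0.1 each, the smallest possible). The 5′ UTR share of all counts in the same RPF libraries was 2.20 to 3.19% at ZT5 and 1.48 to 1.89% at ZT12 in *Aco1*-/- livers, without overlap, and 1.92 to 3.14% and 1.92 to 2.47% in *Aco1*+/+ livers. Its part in the *Epas1* share was not tested. Knockout and control overlapped at both times (differences of −0.08 and 0.15 points, exact permutation p = 1.0 and 0.8). In the *Ireb2* line the share was 1.13 to 3.36% in all livers, and knockout and control overlapped (exact permutation p = 0.2 at ZT5 and 0.9 at ZT12). In RNA the *Epas1* 5′ UTR share was 9.55, 10.2 and 13.2% in *Aco1*-/- livers at ZT12 against 7.33, 8.85 and 8.21% in controls. It was higher by 2.85 points without overlap (exact permutation p = 0.1). Counting only first runs gave 1.42 points, again without overlap. In the same comparison the RNA share of *Hif1a*, which has no known IRE, was higher by 4.81 points without overlap (exact permutation p = 0.1). First runs gave 3.21 points for *Hif1a*, with overlap. *Egln2* and *Egln3* were also higher and *Vegfa* lower, each with overlap. The 5′ UTR share of all RNA counts overlapped, at 4.52 to 4.99% against 4.09 to 5.11%. In the other 3 comparisons of knockout with control the *Epas1* share overlapped, and over all livers it ran from 6.8 to 13.2%.

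Across all members the comparison of knockout with control called 0 of 9 in each of the 12 tests of RNA, RPF and TE. DESeq2 on the same counts also called 0. The background was low too. In RNA, the share of all genes called was 0% for *Aco1* at ZT5, 0.00935% for *Aco1* at ZT12, 0.00935% for *Ireb2* at ZT5 and 0.0187% for *Ireb2* at ZT12. In the same order it was 0.00935, 0.299, 0.0654 and 0.028% in RPF and 0.00935, 0.0935, 0.00935 and 0% in TE. At an unadjusted p under 0.05, the members passing in RNA were *Arnt* and *Egln3* for *Aco1* at ZT5 (2 of 9, against 3.73% of all genes) and *Vegfa* for *Ireb2* at ZT5 (1 of 9, against 5.64%), with 0 at ZT12 in either line (7.66 and 4.21% of all genes). In RPF they were *Egln3* for *Aco1* at ZT5 (2.79% of all genes), *Epas1* for *Aco1* at ZT12 (12.7%), *Vegfa* and *Vhl* for *Ireb2* at ZT5 (7.64%) and *Epas1* for *Ireb2* at ZT12 (7.62%). In TE they were *Arnt* for *Aco1* at ZT5 (2.54%), *Epas1* and *Hif1a* for *Aco1* at ZT12 (6.71%), *Hif1a* for *Ireb2* at ZT5 (7.01%) and *Epas1* for *Ireb2* at ZT12 (3.56%). The 2 groups did not overlap for 3 of 9 members in RNA of the *Aco1* line at ZT5 (9.4% of all genes), for *Egln1* in its RNA at ZT12 (11.6%), for 2 of 9 in its RPF at ZT12 (20.4%), for *Arnt* in its TE at ZT5 (8.75%) and for *Epas1* in its TE at ZT12 (11.1%). In the *Ireb2* line they did not overlap in RPF at ZT5 for 5 of 9 members (15.9% of all genes), with *Epas1*, *Hif1a*, *Vegfa* and *Vhl* lower and *Hif1an* higher in *Ireb2*-/- livers. At ZT12 they did not overlap for *Hif1an* in RPF (10.6%) and for *Epas1* in TE (9.72%). 0 of 9 stood apart in RPF of the *Aco1* line at ZT5 (7.62%), in RNA of the *Ireb2* line at ZT5 (11.6%) and ZT12 (9.77%), and in its TE at ZT5 (11.9%).

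**Figure D2:**
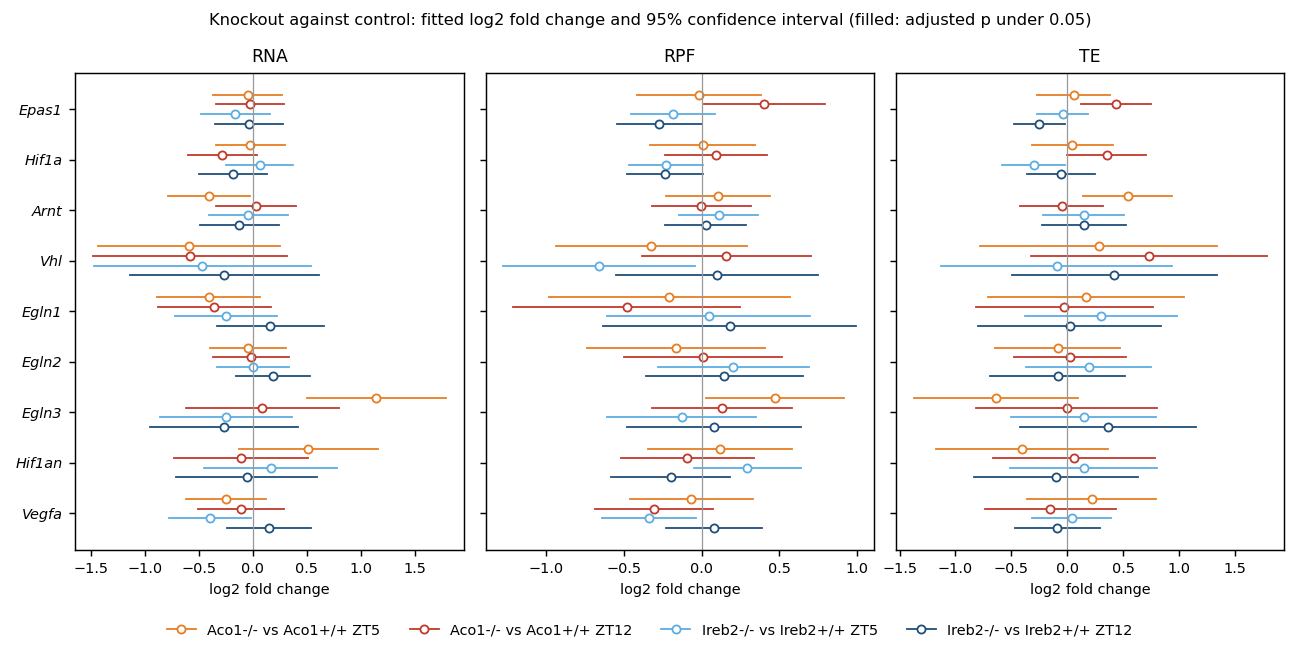
Fitted log2 fold change of knockout against control for the 9 members tested, in RNA, RPF and TE, with 95% confidence intervals; colours are the 4 comparisons and a filled point would mark an adjusted p under 0.05. No point is filled, and the intervals of *Vhl* and *Egln1*, genes with few counts, are wide.

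*Hif1a* (chr12:73901324-73947554), the other oxygen-regulated subunit, has no known IRE. Its RNA was similar in all groups, with single livers between 58.9 and 88.0 CPM and group means from 67.4 to 82.8 CPM. RPF values ran from 51.2 to 83.9 CPM. Its TE in *Aco1*-/- livers at ZT12 was 0.38, −0.07 and −0.23 against −0.21, −0.45 and −0.42 in controls, which overlapped. The fitted difference was 0.35 ± 0.17 (log2, SE, unadjusted p = 0.0494, adjusted p = 0.743, edgeR). It was 0.21 without *Aco1*-/- replicate 1 and of opposite sign, −0.03, with the first sequencing run alone. In *Ireb2*-/- livers at ZT5 it was −0.30 ± 0.14 (unadjusted p = 0.0393, adjusted p = 0.706), with liver values of −0.31, −0.14 and −0.27 against 0.05, −0.18 and 0.36. Without *Ireb2*+/+ replicate 3, whose RNA library had the lowest share of counts in 3′ UTRs, it was −0.19. *Hif1a* TE lay at a median percentile of 38.4 of the genes tested.

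*Arnt* (chr3:95434367-95497240) encodes the partner that both HIF-α subunits share. Its RNA was 38.7, 45.9 and 36.1 CPM in *Aco1*+/+ livers at ZT5 and 24, 35.5 and 31.3 CPM in *Aco1*-/- livers, lower in the knockouts without overlap. The log2 fold change was −0.41 ± 0.19 (SE, unadjusted p = 0.0363, adjusted p = 1.00, edgeR). *Arnt* RPF did not follow, at 34.5 to 48.4 CPM in knockouts against 35.5 to 43.8 CPM in controls. Its TE was 0.53, 0.45 and 0.60 in knockouts against −0.12, −0.07 and 0.20 in controls, a difference of 0.54 ± 0.20 (unadjusted p = 0.00908, adjusted p = 1.00). With RNA counted over all columns, UTRs included, the difference was −0.24 in RNA and 0.34 in TE. At ZT12 *Arnt* RNA was 53.9, 51.1 and 38.11 CPM in knockouts and 52.4, 38.9 and 47.1 CPM in controls.

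The oxygen sensors *Egln1* (PHD2, chr8:124908587-124949254) and *Egln2* (PHD1, chr7:27158658-27166802) shared a low TE. The median percentile among genes tested was 3.53 for *Egln1* and 4.33 for *Egln2*, and the highest liver reached 17.1 and 16.7. *Egln2* also had the largest share of 5′ UTR footprints of the 10 genes, 35.7% of its 5′ UTR plus CDS footprints summed over livers, against 16.4% of its RNA reads. *Epas1* had 2.33% of footprints and 9.30% of RNA reads there. For *Egln1* the share was 4.23%, from 21 footprints in the 5′ UTR and 476 in the CDS over all libraries. Knockout against control gave log2 fold changes between −0.41 and 0.16 in RNA for *Egln1* and between −0.04 and 0.19 for *Egln2*, none past an unadjusted p of 0.05. *Egln1* RNA was 17.1, 17.1 and 22.2 CPM in *Aco1*+/+ livers at ZT5 and 10.1, 14.8 and 16.1 CPM in *Aco1*-/- livers, which did not overlap. The 95% confidence intervals of these 2 genes in RNA ran from −0.88 to 0.66 and from −0.39 to 0.53.

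*Egln3* (PHD3, chr12:54178981-54203874) is both an oxygen sensor and a known HIF target. It had the largest RNA difference among the members. *Egln3* RNA was 10.9, 16.5 and 12.4 CPM in *Aco1*-/- livers at ZT5 and 5.27, 4.80 and 9.51 CPM in *Aco1*+/+ livers, without overlap. The log2 fold change was 1.14 ± 0.32 (SE, unadjusted p = 0.000995, adjusted p = 1.00, edgeR), and it was not called. RPF at ZT5 was 15.9, 18 and 12.5 CPM in knockouts against 13.4, 9.65 and 9.55 CPM in controls, which overlapped (0.47 ± 0.21, unadjusted p = 0.0376, adjusted p = 1.00). At ZT12, when *Epas1* RPF was highest in *Aco1*-/- livers, *Egln3* RNA was 10.2, 6.35 and 4.90 CPM in knockouts and 4.83, 7.82 and 4.71 CPM in controls. In *Ireb2*-/- livers it was 7.06, 4.62 and 10.4 CPM at ZT5 and 7.90, 4.90 and 6.55 CPM at ZT12, against 7.73 to 10.4 and 6.63 to 9.04 CPM in controls. The effect of IRP1 loss minus that of IRP2 loss on *Egln3* RNA at ZT5 was 1.39 ± 0.45 (unadjusted p = 0.00343, adjusted p = 1.00), and the *Aco1* effect at ZT12 minus that at ZT5 was −1.05 ± 0.47 (unadjusted p = 0.0325, adjusted p = 0.836). *Egln3* counts were low, 9 to 79 in RNA libraries.

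*Vhl* (chr6:113623994-113631634), the substrate-binding subunit of the ligase, and *Hif1an* (factor inhibiting HIF, chr19:44562854-44576274) had few CDS reads, with medians of 11 and 25.5 counts in RNA libraries. *Vhl* had no CDS count in 1 RNA library, of *Aco1*-/- replicate 1 at ZT12. *Vhl* RPF was 4.39, 3.62 and 2.85 CPM in *Ireb2*-/- livers at ZT5 against 4.88, 4.78 and 7.42 CPM in controls, without overlap, and the log2 fold change was −0.66 ± 0.30 (SE, unadjusted p = 0.0383, adjusted p = 0.626, edgeR). It was −0.43 without *Ireb2*+/+ replicate 3. The 95% confidence intervals of *Vhl* RNA over the 4 comparisons ran from −1.48 to 0.61, which is wide at this depth. *Hif1an* RNA differences lay between −0.11 and 0.52 and RPF differences between −0.20 and 0.29.

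*Vegfa* (chr17:46016993-46032377), the vascular growth factor and classic HIF target, did not rise with *Epas1* footprints. In *Aco1*-/- livers at ZT12 its RNA was 37.6, 40.7 and 32.1 CPM against 46.3, 35.2 and 38.3 CPM in controls, which overlapped. RPF there was 21.7, 32.9 and 31.8 CPM against 35, 34.7 and 36.5 CPM, lower without overlap and not called. In *Ireb2*-/- livers at ZT5 *Vegfa* RNA was 35, 36.6 and 38.11 CPM against 37.6, 40.5 and 68.7 CPM. The log2 fold change was −0.40 ± 0.18 (SE, unadjusted p = 0.0407, adjusted p = 0.837, edgeR), and 1 control liver held the highest value. Without that liver, *Ireb2*+/+ replicate 3, it was −0.08 (unadjusted p = 0.601), and that RNA library also had 17.2% of its counts in 3′ UTRs, against 22.1 to 27.6% in the other RNA libraries. RPF was 31.5, 27.7 and 29.5 CPM against 34.3, 33.9 and 43.6 CPM (−0.34 ± 0.14, unadjusted p = 0.0304, adjusted p = 0.622), and −0.21 without the same control liver. *Ankrd37* (chr8:45996908-46000414), another HIF target, had 0 to 6 CDS counts in RNA libraries and 0 to 17 in RPF libraries, too few to compare.

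Wider sets of pathway genes were read the same way. In knockout against control, 0 genes were called in RNA or in RPF among 8 tested HIF partners and ligase subunits, 12 glycolytic HIF targets, 14 other HIF targets and the 3 genes reported as HIF-2α targets that are described here. DESeq2 called 2 of them in RPF of the *Aco1* line at ZT12, the ligase subunit *Rbx1* and the glycolytic enzyme *Eno1*, and 0 in RNA. Of all genes to which DESeq2 gave an adjusted p, it called 1.49% in RPF and 0.0187% in RNA of this comparison. At an unadjusted p under 0.05 in the *Aco1* line at ZT12, edgeR gave 1 of 8, 0 of 12 and 1 of 14 in RNA and 4, 3 and 1 in RPF for the first 3 of these lists, in their order. Of the 3 HIF-2α targets described, *Tgfa* and *Ccnd1* passed in RNA and 0 in RPF. The shares of all genes that passed were 7.66% in RNA and 12.7% in RPF. *Rbx1* RPF was 11.4, 13.2 and 18.8 CPM in *Aco1*-/- livers against 31.9, 29.2 and 30.6 CPM in controls, and edgeR gave −1.09 with an adjusted p of 0.0959. In RNA of *Aco1*-/- against *Aco1*+/+ livers at ZT12, the median log2 fold change was 0.02 for glycolytic targets, 0.03 for other targets and 0.18 for partners and ligase, beside 0.00 for all genes. The HIF-2α targets *Ccnd1*, *Irs2* and *Tgfa* were at 0.76, 0.79 and 1.42 in this comparison.

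In knockout against control, *Ccnd1*, *Tgfa* and *Irs2* were not called in RNA or in RPF. *Irs2*, an insulin receptor substrate, differed in RNA of *Aco1*-/- against *Aco1*+/+ livers by 0.48 ± 0.56 at ZT5 and 0.79 ± 0.60 at ZT12 (log2, SE, adjusted p = 1.00 and 0.813, edgeR). *Tgfa*, an epidermal growth factor receptor ligand, had 7.12, 5.48 and 8.71 CPM in *Aco1*-/- livers at ZT12 against 2.42, 2.39 and 3.14 CPM in controls, without overlap. Its log2 fold change was 1.42 ± 0.39 (SE, unadjusted p = 0.000811, adjusted p = 0.426, edgeR). *Ccnd1*, cyclin D1, differed by 0.82 ± 0.33 at ZT5 and 0.76 ± 0.29 at ZT12 (adjusted p = 1.00 and 0.570), with 19.3, 14.1 and 34.0 CPM in knockouts and 15.3, 12.6 and 13.5 CPM in controls at ZT12. In RPF at ZT12 the values were 0.15 ± 0.31 for *Tgfa* and 0.04 ± 0.38 for *Ccnd1*. *Epo* was listed at 0 counts in all libraries, as was the glycolytic gene *Gapdh*, which has many near-identical copies, so neither was tested.

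Other listed targets with small unadjusted p in *Aco1*-/- livers were *Hmox1*, haem oxygenase, at ZT5 (RNA 1.39, adjusted p = 1.00) and *Ddit4*, an inhibitor of mTOR signalling, at ZT12 (RNA 1.27, adjusted p = 0.472). *Ddit4* RNA was 12.2, 8.94 and 28.9 CPM against 7.65, 6.73 and 7.54 CPM, and 1 liver held the highest value. *Cited2*, a HIF target that competes for the coactivator CBP/p300, gave 1.12 at ZT12 (adjusted p = 0.462). In the *Ireb2* line *Pdk1*, a brake on pyruvate oxidation, gave 0.69 at ZT5 (adjusted p = 0.826), *Cited2* −1.04 at ZT5 (adjusted p = 0.826) and *Pgk1* −1.05 at ZT12 (adjusted p = 1.00).

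**Figure D3:**
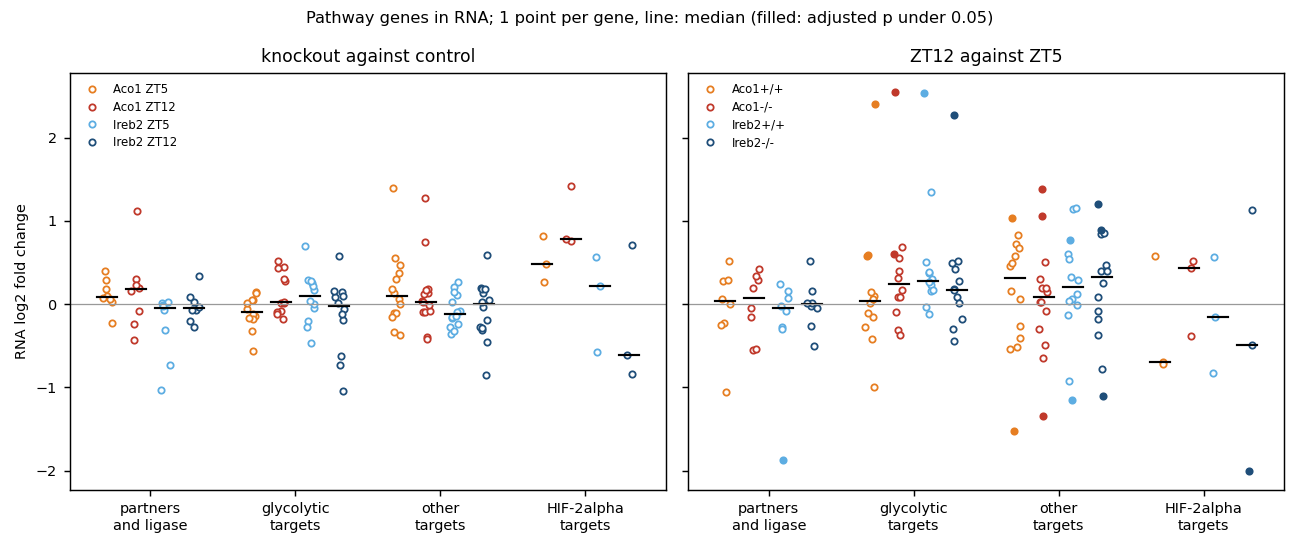
RNA log2 fold change of listed pathway genes, 1 point per gene, with the median of each list as a line; left knockout against control, right ZT12 against ZT5. Filled points have an adjusted p under 0.05. No point is filled on the left, and on the right *Pfkfb3* is the highest point in each genotype.

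*Epas1* is abundant in endothelial cells, and in bulk liver fewer cells of a type and less RNA per cell cannot be told apart. The 10 endothelial markers were all tested, 0 were called between knockout and control in RNA or RPF, and none was at 0 in any group. Their summed RPF level at ZT12 was 624 to 733 CPM in *Aco1*-/- and 670 to 681 CPM in *Aco1*+/+ livers. Summed endothelial RNA was 519 to 612 CPM in *Aco1*-/- and 501 to 572 CPM in *Aco1*+/+ livers at ZT12, and 607 to 730 CPM in *Ireb2*-/- against 486 to 633 CPM in *Ireb2*+/+ livers at ZT5. Among markers of Kupffer cells, stellate cells, cholangiocytes, hepatocytes, hepatocyte zones and red cells, 0 were called in these comparisons either. Of their summed levels, 0 stood apart between *Aco1* genotypes at ZT12. At ZT5 red cell sums were lower in *Aco1*-/- than in *Aco1*+/+ livers without overlap, at 7.30 to 20.9 against 36.1 to 72.0 CPM in RNA and 14.5 to 21.4 against 31.8 to 94.3 CPM in RPF. In the *Ireb2* line at ZT5, cholangiocyte RPF was 62.06 to 111.04 CPM in knockouts against 39.8 to 54.9 CPM in controls, red cell RPF 12.6 to 18.9 against 20.3 to 34.9 CPM, hepatocyte RNA 116993 to 135916 against 95446 to 114999 CPM, and pericentral hepatocyte RNA 8413 to 9330 against 9361 to 10812 CPM. Hepatocyte sums also stood apart in that line at ZT12, higher in knockouts in RNA and in RPF. Of the endothelial markers, *Cdh5* RNA was 0.42 higher in *Aco1*-/- livers at ZT12 and *Pecam1* RNA 0.52 higher in *Ireb2*-/- livers at ZT5 (log2, adjusted p = 0.619 and 0.826). Between times in *Aco1*-/- livers, where *Epas1* RPF rose, summed endothelial RPF was 643 to 735 CPM at ZT5 and 624 to 733 CPM at ZT12, and 1 of the 10 markers was called in RPF, *Clec4g*, which fell by 0.65 (adjusted p = 0.0112), against 12.1% of all genes. In *Ireb2*-/- livers the endothelial sums were lower at ZT12 without overlap. They were 607 to 730 CPM at ZT5 and 528 to 550 CPM at ZT12 in RNA, and 763 to 817 and 686 to 743 CPM in RPF. Other marker sums did stand apart between times in the *Aco1* line, where *Epas1* RNA rose. In *Aco1*+/+ livers pericentral hepatocyte RNA was 6725 to 7597 CPM at ZT5 and 9594 to 10659 CPM at ZT12, its RPF 12050 to 13751 and 18732 to 21552 CPM, and periportal RPF 6674 to 7258 and 7653 to 10994 CPM. Cholangiocyte sums there went from 26.8 to 38.4 CPM at ZT5 to 11.7 to 12.6 CPM at ZT12 in RNA and from 68.9 to 83.9 CPM to 24.7 to 29.996 CPM in RPF, and stellate RPF from 723 to 816 CPM to 818 to 876 CPM. In *Aco1*-/- livers the sums that stood apart were pericentral RPF (10001 to 16893 and 17761 to 24317 CPM), periportal RPF (6322 to 8038 and 8855 to 12229 CPM) and stellate RNA (392.5 to 470.4 and 477 to 559 CPM). The part of cell composition in the *Epas1* values was not tested.

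The second comparison asked how the pathway differed between ZT5 and ZT12. *Epas1* RNA rose from ZT5 to ZT12 by 0.61 ± 0.16 (log2, SE) in *Aco1*+/+ livers (adjusted p = 0.0109, edgeR) and by 0.64 ± 0.16 in *Aco1*-/- livers (adjusted p = 0.0105), factors of 1.53 and 1.56. In *Ireb2*+/+ livers the difference was 0.31 ± 0.15 (adjusted p = 0.347) and in *Ireb2*-/- livers 0.43 ± 0.15 (adjusted p = 0.155), neither called, and the first of these was 0.19 without *Ireb2*+/+ replicate 3 at ZT12. Other livers of these controls pulled the other way. Replicate 2 at ZT12 was at 167 CPM beside 248 and 258 CPM, and replicate 3 at ZT5 at 211 CPM beside 154 and 177 CPM. All 4 differences had the same sign. *Epas1* RPF rose by 0.90 ± 0.19 in *Aco1*-/- livers (adjusted p = 0.00488), a factor of 1.87, and was 0.48 ± 0.19 higher in *Aco1*+/+ livers (adjusted p = 0.146). The *Aco1* effect on RPF at ZT12 minus that at ZT5 was 0.42 ± 0.27 (adjusted p = 0.902), so the 2 genotypes were not shown to differ. *Epas1* TE differed by −0.10 in *Aco1*+/+, 0.27 in *Aco1*-/-, −0.08 in *Ireb2*+/+ and −0.29 in *Ireb2*-/- livers, and none was called. With the first sequencing run alone, the value in *Aco1*-/- livers was 0.08. The calls in RNA were sensitive to single livers. Adjusted p was 0.0761 without *Aco1*+/+ replicate 1 at ZT12, 0.0521 and 0.0606 without *Aco1*+/+ replicates 1 and 2 at ZT5, 0.0616 without *Aco1*-/- replicate 3 at ZT12, and 0.109 and 0.0598 without *Aco1*-/- replicates 1 and 2 at ZT5.

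Of the 9 members, 2 were called between times in RNA of *Aco1*+/+ livers (7.05% of all genes), 3 in *Aco1*-/- (5.15%), 0 in *Ireb2*+/+ (2.29%) and 0 in *Ireb2*-/- livers (2.77%). In RPF 2 were called in *Aco1*-/- livers (12.1% of all genes) and 0 in *Aco1*+/+ (6.64%), *Ireb2*+/+ (7.53%) and *Ireb2*-/- livers (5.73%). In TE 0 members were called in *Aco1*+/+ (0.0187% of all genes), *Aco1*-/- (0.15%), *Ireb2*+/+ (0.533%) and *Ireb2*-/- livers (0.00935%). Where 0 were called, the members at an unadjusted p under 0.05 were *Epas1* in RNA of *Ireb2*-/- livers, *Epas1*, *Arnt* and *Egln3* in RPF of *Aco1*+/+ livers, *Vegfa* and *Vhl* in RPF of *Ireb2*-/- livers, and *Vegfa*, *Arnt* and *Epas1* in TE of *Aco1*+/+, *Aco1*-/- and *Ireb2*-/- livers, with 0 in *Ireb2*+/+ livers. Summed over the 4 genotypes, DESeq2 called 3 in RNA, 2 in RPF and 0 in TE.

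The other calls were *Vegfa*, *Arnt* and *Egln3*. *Vegfa* RNA fell from 68.1, 67.5 and 43.1 CPM at ZT5 to 46.3, 35.2 and 38.3 CPM at ZT12 in *Aco1*+/+ livers, by 0.61 ± 0.19 on the log2 scale (adjusted p = 0.0395, edgeR), and the groups overlapped in 1 liver. Adjusted p was 0.0883 by DESeq2, 0.202 and 0.125 without replicates 2 and 3 at ZT12, and 0.204 and 0.251 without replicates 1 and 2 at ZT5. In *Aco1*-/- livers the values were 58.8, 56.1 and 38.09 CPM at ZT5 and 37.6, 40.7 and 32.1 CPM at ZT12 (−0.47 ± 0.19, adjusted p = 0.160). *Vegfa* RPF did not follow in *Aco1*+/+ livers, at 27.9, 30.6 and 42.8 CPM and then 35, 34.7 and 36.5 CPM, and its TE was 0.74 ± 0.27 higher at ZT12 (adjusted p = 0.521).

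*Arnt* RNA rose in *Aco1*-/- livers from 24, 35.5 and 31.3 CPM at ZT5 to 53.9, 51.1 and 38.11 CPM at ZT12, by 0.61 ± 0.19 on the log2 scale (adjusted p = 0.0489, edgeR). With RNA counted over all columns the difference was 0.33 and not called. The call was lost without *Aco1*-/- replicate 1 (adjusted p = 0.122) or 2 (0.151) at ZT12 and without replicate 1 (0.226) or 3 (0.0812) at ZT5. *Egln3* fell in *Aco1*-/- livers in both libraries, by 1.08 ± 0.32 in RNA (adjusted p = 0.0370) and by 1.0 ± 0.21 in RPF (adjusted p = 0.00520), the opposite direction to *Epas1* RPF in the same livers. Its RPF values went from 15.9, 18 and 12.5 CPM to 7.44, 6.93 and 8.85 CPM without overlap. In *Aco1*+/+ livers RPF went from 13.4, 9.65 and 9.55 CPM to 7.11, 7.98 and 6.12 CPM (−0.66 ± 0.22, adjusted p = 0.0732). The RNA call was lost by DESeq2 (adjusted p = 0.118) and without *Aco1*-/- replicate 2 (0.0872) or 3 (0.247) at ZT12 or replicate 2 (0.201) at ZT5. The time comparison of *Egln3* and *Arnt* shares the *Aco1*-/- livers at ZT5 with the comparison of genotypes at ZT5.

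**Figure D4:**
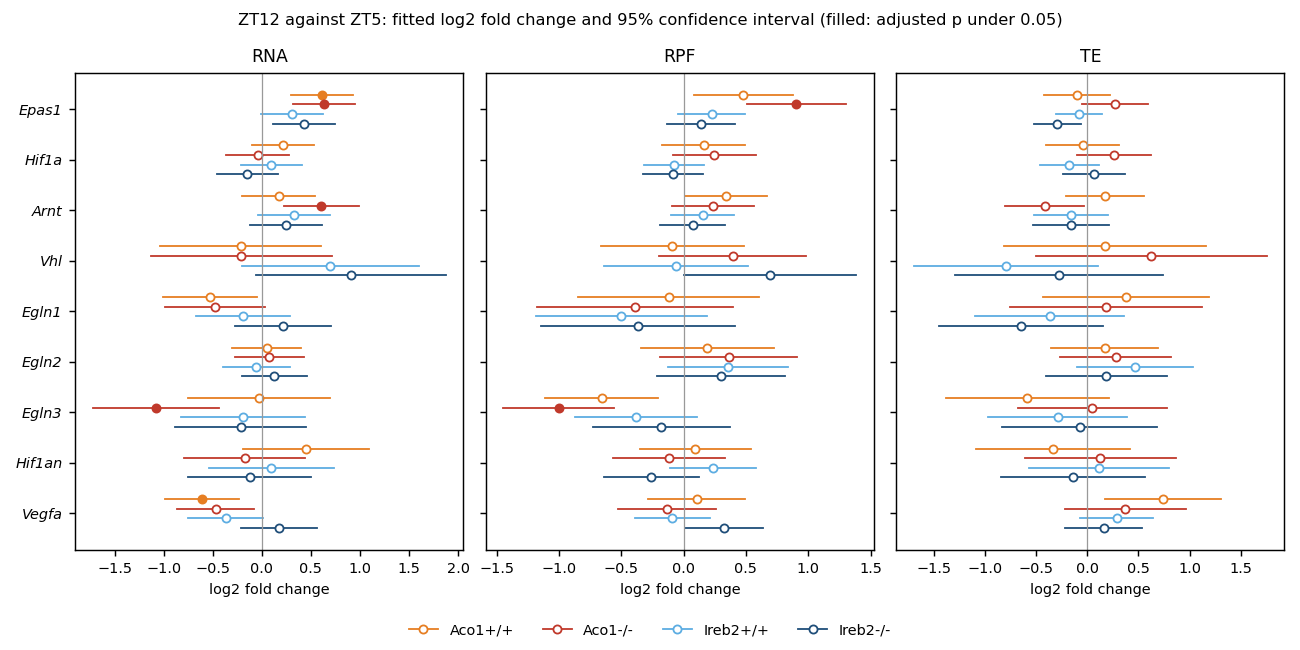
Fitted log2 fold change of ZT12 against ZT5 within each genotype for the 9 members tested, in RNA, RPF and TE, with 95% confidence intervals; filled points have an adjusted p under 0.05. *Epas1* is filled in RNA of both *Aco1* genotypes and in RPF of *Aco1*-/- livers (0.90), where *Egln3* is filled in the opposite direction (−1.0).

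**Figure D5:**
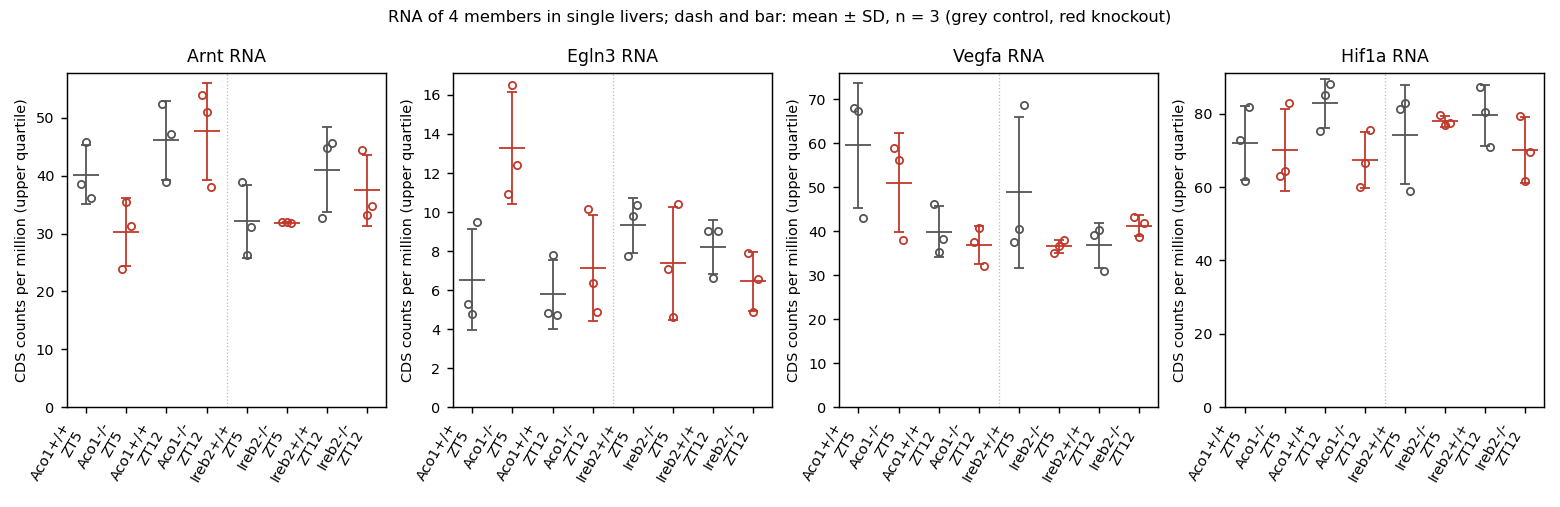
RNA of *Arnt*, *Egln3*, *Vegfa* and *Hif1a* in single livers (CPM of CDS counts after upper-quartile scaling). Circles are livers, dashes and bars the mean and SD of 3, grey controls and red knockouts. *Egln3* is highest in *Aco1*-/- livers at ZT5, and *Hif1a* stays between 58.9 and 88.0 CPM in all livers.

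Among the listed pathway genes, changes between times were seen in all genotypes. *Pfkfb3*, an activator of glycolysis, rose at ZT12 in RNA of all 4, by 2.40 in *Aco1*+/+, 2.55 in *Aco1*-/-, 2.54 in *Ireb2*+/+ and 2.28 in *Ireb2*-/- livers (log2, adjusted p from 7.58e-08 to 0.0243). *Bnip3*, a mitophagy receptor, rose in RNA of all 4 by 0.78 to 1.06 (adjusted p from 9.81e-05 to 0.0158), and *Plin2*, a lipid droplet coat protein, fell by 1.52, 1.34, 1.15 and 1.10 (adjusted p from 5.93e-08 to 0.0255). *Gpi1*, a glycolytic enzyme, rose in RNA of both *Aco1* genotypes by 0.57 and 0.60 (adjusted p = 0.0224 and 0.0209), and *Pdk1* rose in *Aco1*+/+ livers by 0.59 (adjusted p = 0.0309). *Ddit4* rose by 1.39 in *Aco1*-/- livers (adjusted p = 0.0405), and *P4ha1*, a collagen prolyl hydroxylase, rose by 1.2 in *Ireb2*-/- livers (adjusted p = 0.00726). *Irs2* fell by 2.00 in *Ireb2*-/- livers (adjusted p = 0.00298), and *Cited2* fell by 1.87 in *Ireb2*+/+ livers (adjusted p = 0.00303). The targets thus moved in both directions. In RNA the glycolytic list had 3, 2, 1 and 1 of 12 genes called upward and 0 downward in *Aco1*+/+, *Aco1*-/-, *Ireb2*+/+ and *Ireb2*-/- livers. The list of other targets had 1, 2, 1 and 2 of 14 upward and 1 downward in each. In the same order, the shares of all genes called were 3.29, 2.42, 1.09 and 1.32% upward and 3.76, 2.73, 1.2 and 1.45% downward.

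In RPF the same lists had further calls. In *Aco1*+/+, *Aco1*-/-, *Ireb2*+/+ and *Ireb2*-/- livers in that order, 2, 2, 2 and 2 of 12 glycolytic targets were called upward and 0, 1, 0 and 0 downward. Of 14 other targets 1, 0, 1 and 3 were called upward and 1, 2, 2 and 1 downward, and of 8 partners and ligase subunits 0, 1, 0 and 0 upward and 0, 3, 1 and 2 downward. The shares of all genes called in either direction were 6.64, 12.1, 7.53 and 5.73%. *Pfkfb3* rose in all 4 genotypes by 2.38 to 3.32 (adjusted p from 0.0016 to 0.0294) and *Gpi1* in all 4 by 0.53 to 0.67 (adjusted p from 0.00598 to 0.0310). *Bnip3* rose in *Aco1*+/+ (1.05), *Ireb2*+/+ (1.13) and *Ireb2*-/- livers (0.69), and *Plin2* fell in *Aco1*+/+, *Aco1*-/- and *Ireb2*+/+ livers by 1.26, 1.41 and 1.16. *Ndrg1*, a stress-response gene, fell in *Aco1*-/-, *Ireb2*+/+ and *Ireb2*-/- livers by 1.06, 1.05 and 0.78. *P4ha1* rose by 0.88 and *P4ha2* by 1.06 in *Ireb2*-/- livers, and the triosephosphate isomerase gene *Tpi1* fell by 0.50 in *Aco1*-/- livers. Of the partners and ligase subunits in *Aco1*-/- livers, the coactivator *Ep300* rose by 0.56, and *Rbx1*, *Eloc* and *Cited2* fell by 1.17, 0.68 and 0.57. *Cited2* also fell in *Ireb2*+/+ (0.73) and *Ireb2*-/- livers (0.59), and the coactivator *Crebbp* fell by 0.42 in *Ireb2*-/- livers.

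The last comparison asked whether livers with more *Epas1* footprints had more RNA of pathway genes. Over 24 livers, with group means removed, *Epas1* RPF was set against the RNA of each of the other 8 tested members. The relation with *Vegfa* was negative, with Pearson's r = −0.60 (permutation p = 0.0172, adjusted over 8 relations 0.128) and Spearman's rho = −0.53 (permutation p = 0.0341, adjusted 0.226). Without the 2 livers farthest from the median of *Epas1* RPF, r was −0.38. They were replicate 3 of *Aco1*+/+ and of *Aco1*-/- at ZT5, with *Epas1* RPF of 247 and 259 CPM. These 2 livers deviated together over 5791 genes, with r of 0.35 in RNA and 0.58 in RPF. The permutation within groups takes livers as independent and does not allow for this. With *Hif1a* r was 0.53 (permutation p = 0.0319, adjusted 0.128), rho was 0.49 (permutation p = 0.0565, adjusted 0.226), and r was 0.35 without those 2 livers. Both relations thus lost size with these livers, and neither passed the adjusted threshold. The 6 others had r between −0.05 and 0.29 and adjusted permutation p of at least 0.667 for r and 0.578 for rho. For *Egln3* r was 0.29 and rho 0.28.

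The genes most like *Epas1* in TE across the 24 livers, among 2691 genes with a mean of at least 100 CDS counts in RNA and in RPF, were *Fbp1* (r = 0.85), the gluconeogenic enzyme fructose-1,6-bisphosphatase, then *Amdhd1* (r = 0.77), *Acp5* (r = 0.77), *Sf1* (r = 0.76) and *Larp4b* (r = 0.75). These are descriptions over livers of 8 groups that share scaling and library preparation. Over all livers, r was 0.38 for the 5′ IRE transcript *Slc40a1* and 0.01 for *Ftl1*. Once group means were removed, r was 0.65 for *Fbp1*, 0.59 for *Amdhd1*, 0.50 for *Acp5*, 0.47 for *Sf1* and 0.53 for *Larp4b*, and it lay in the same range, 0.47 to 0.59, for *Slc40a1*, *Alas2*, *Fth1* and *Ftl1*. Within groups r was 0.55 for *Vegfa*, −0.10 for *Hif1a* and 0.04 for *Arnt*.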

How the data were processed

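The authors trimmed adapters with cutadapt (version 3.5), filtered reads by quality and length (24 to 35 bases for RPFs, 21 to 60 for RNA), removed rRNA and tRNA reads with Bowtie2 and mapped the rest with STAR (version 2.70f) to the mouse genome, Ensembl release 100 (GRCm38). They deposited raw read counts per gene, 1 file per sequencing run, with 5 unnamed columns. The counting tool and its strand setting are not given in the sources used here, so a gene and an antisense partner cannot be told apart. The third column held 91.9 to 96.1% of RPF counts and was taken as the CDS, and the second as the 5′ UTR. Runs of a library were summed (29 of 48 had 2).

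Genes were kept by filterByExpr (minimum count 10, minimum total 15). edgeR's quasi-likelihood test with upper-quartile scaling was fitted in each line to its 4 groups, and for TE to RPF and RNA together with the mouse as a term. Differences between lines used all 24 livers. Adjusted p-values are Benjamini-Hochberg values across every gene tested. CPM used the scaled library sizes, TE a prior count of 0.5, and SE is the log2 fold change over the square root of F. Single values used exact two-sided permutation, and correlations 100000 permutations within groups. The methods were tested on simulated data.

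The members, lists, markers and tests were chosen with earlier results of these data known. The text names all members, listed targets past the threshold and otherwise up to 4 with the smallest p in a comparison, and the 5 genes most like *Epas1* in TE. Genes named from lists for other reasons (*Rbx1*, the remaining HIF-2α targets, *Epo*, *Gapdh*) were chosen after their values were seen. Lymphocyte markers did not pass the filter, and some listed genes (*Arnt2*, *Slc16a3*, *Ero1a*, *Cd3e*) were not analysed here. Some others are not reported here. Positions and promoters came from RefSeq (GRCm38.p6). Alternatives were TMM, upper quartile for each kind of library, DESeq2, limma on TE per mouse, libraries not paired by mouse, other filters (none, minimum count 50), the first sequencing run, the mice compared alone, RNA over all columns, a replicate block and each liver left out. Software was R 4.3.3, edgeR 4.0.16, limma 3.58.1, DESeq2 1.42.0, Python 3.11.15, NumPy 2.4.6, pandas 2.3.3 and SciPy 1.17.1.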

Additional observations from a re-analysis of the deposited data

How the results depend on the processing

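The *Epas1* TE difference between *Aco1*-/- and *Aco1*+/+ livers at ZT12 was positive under every alternative run, at 0.25 with the first sequencing run alone, 0.43 to 0.47 under the other settings and 0.25 to 0.53 with 1 liver left out (0.25 without *Aco1*+/+ replicate 1), and was called under none. Replicate numbers did not pair livers throughout: same-numbered knockouts and controls deviated together (r over 0.1) in 5 of 12 pairs in RNA, 5 of 12 in RPF and 2 of 12 in TE, and a liver correlated best with its own number in 4, 5 and 7 of 12. In *Aco1* livers at ZT5 all 3 pairs were over 0.1 in RNA (0.15 to 0.35) and in RPF (0.13 to 0.58), and 2 of 3 in TE, and with the replicate block *Epas1* differed there by 0.05 in TE, −0.03 in RPF and −0.06 in RNA, still not called. With the block the TE difference at ZT12 was 0.43, 65 genes in all were called in RPF between genotypes (43 without it), and the call of *Arnt* RNA between times in *Aco1*-/- livers was lost (adjusted p = 0.0584).

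Using just the first run of each library, *Epas1* TE in *Ireb2*-/- against *Ireb2*+/+ livers at ZT5 was 0.035, *Epas1* RNA in *Aco1*-/- against *Aco1*+/+ livers at ZT12 was 0.19 and *Hif1a* TE in that comparison was −0.034, each of opposite sign to the value in the report. The rise of *Epas1* RNA in *Aco1*+/+ livers was 0.54 (adjusted p = 0.0591), and the 5′ UTR share of *Epas1* footprints differed by −0.63 points between genotypes of the *Aco1* line at ZT12 and by −1.21 points between times in *Aco1*+/+ livers. Members called between times in RNA numbered 1, against 5 in the report and 3 by DESeq2. The time difference of *Epas1* RNA in *Ireb2*-/- livers was called with only the mice compared (0.43, adjusted p = 0.0333) and with RNA counted over all columns (0.55, adjusted p = 0.0342). Of the listed pathway genes, *Rbx1* was called between genotypes in TE with RNA over all columns (1 gene) and in RPF with only the mice compared (1 gene), and DESeq2 called 2 in RPF. *Arnt* RNA between times in *Aco1*-/- livers also lost its call with the first run (0.0509), only the mice compared (0.0914) and RNA over all columns (0.187), and *Vegfa* (0.125) and *Egln3* (0.0534) lost theirs with the first run. The cause of these changes was not tested.

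With 1 liver left out at a time, *Epas1* TE between *Aco1* genotypes ranged from −0.044 to 0.21 at ZT5, and between *Ireb2* genotypes from −0.18 to 0.073 at ZT5. Between times it ranged from −0.21 to 0.077 in *Aco1*+/+ and from −0.22 to 0.029 in *Ireb2*+/+ livers. The effect of IRP1 loss minus that of IRP2 loss on TE at ZT5 ranged from −0.011 to 0.25. *Epas1* RPF ranged from −0.28 to 0.18 between *Aco1* genotypes at ZT5 and from 0.37 to 0.67 between times in *Aco1*+/+ livers, where it was called without replicate 3 at ZT5 (adjusted p = 0.0307). *Epas1* RNA ranged from −0.27 to 0.089 and from −0.093 to 0.069 between *Aco1* genotypes at ZT5 and ZT12, from −0.22 to 0.076 between *Ireb2* genotypes at ZT12, and between times from 0.52 to 0.67 in *Aco1*+/+ and from 0.50 to 0.86 in *Aco1*-/- livers. *Vegfa* RNA between times in *Aco1*-/- livers was called without replicate 3 at ZT5 (−0.65, adjusted p = 0.0479). Members called between times in RNA numbered 2 to 5. Pathway genes called between genotypes numbered 0 to 1 in RPF (*Rbx1*, without *Aco1*-/- replicate 3 at ZT12 or *Aco1*+/+ replicate 3 at ZT5) and 0 to 1 in RNA (*Ddit4*, without *Aco1*-/- replicate 2 at ZT12). The fall of *Egln3* RPF and the rise of *Epas1* RPF between times in *Aco1*-/- livers passed the threshold under every alternative.

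Over all genes and 4 comparisons, calls between genotypes numbered 12 in TE (1 to 55 under other settings, 6 to 60 with 1 liver left out), 43 in RPF (24 to 167, and 18 to 171) and 4 in RNA (2 to 19, and 3 to 55). Calls between times numbered 76 in TE (0 to 195, and 49 to 188), 3421 in RPF (2213 with the first run) and 1846 in RNA (1205 with the first run). *Ankrd37* and *Vhl* were limited by counts.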
